A study of Mus musculus with 2 samples.

Results

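Aminoacyl tRNA synthetases were examined in brown preadipocytes (D0) and in brown adipocytes (D7), with 1 RNA-Seq library per stage. The members were 36 genes of a deposited FPKM table, taken by gene symbol from its 23361 genes with values, and all 36 were above 0 in both libraries. They were split by their symbol into 20 cytosolic forms and 16 mitochondrial forms, the latter being those whose symbol ends in ars2. FPKM is the number of sequenced fragments per kilobase of transcript, scaled to the size of the library, so levels of different genes can be compared per length.

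Both libraries came from cultured cells of interscapular brown adipose tissue of newborn C57BL/6 mice (the paper's methods name C57BL/6J), and the labels name no transgene or deletion. Media are given here as in the labels, and the paper's methods state other concentrations of insulin, dexamethasone and growth serum. The cells grew in DMEM with 20% fetal bovine serum and were then kept for 4 days in differentiation medium with 10% serum, insulin at 0.1 μM and T3 at 1 nM. D0 cells were taken at this point, before the inducers. D7 cells received IBMX at 0.5 mM, indomethacin at 0.125 mM and dexamethasone at 2 μg/ml on day 0 for 2 days, and afterwards the differentiation medium alone. The labels name the cells as primary cultures, whereas according to the methods of the paper they were immortalized with large T. The paper's methods also name 4 mice, 1 day old and of either sex. Whether the cells of these mice were pooled was not given.

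An aminoacyl tRNA synthetase joins an amino acid to the tRNAs that carry its anticodons, and thereby sets the genetic code at each step of translation. Most amino acids have a pair of nuclear genes, one for the enzyme of the cytosol and one for the enzyme that is imported into mitochondria, where it serves the ribosomes that make a few subunits of the respiratory chain. Several cytosolic synthetases sit together in the multisynthetase complex, and the ATF4 branch of the amino acid response is known to raise transcription of many cytosolic synthetase genes. Brown adipocytes are known for their dense, respiring mitochondria.

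The stage labels were checked against marker genes. All 8 adipocyte markers passed 2.0-fold upward, with Pparg at 3.83 FPKM at D0 and 128 at D7. The brown adipocyte markers Ucp1, Cidea and Elovl3 were listed at 0 at D0 and stood at 4.57, 24.4 and 34.2 FPKM at D7. Of the other 2 brown markers, Ppargc1a had 0.0370 and 4.41 FPKM, and Prdm16 had 0.835 and 1.02 FPKM with a ratio of 1.22, whose interval from 0.965 to 1.53 includes 1. All 5 preadipocyte and fibroblast markers were lower at D7, 3 of them by at least 2.0-fold. Of 7 proliferation genes, 6 were lower at D7 by at least 2.0-fold, and their summed FPKM went from 104 to 47.1. Macrophage markers also differed, with 11 of 11 measured genes higher at D7, 10 of them by at least 2.0-fold, and a summed FPKM of 156 at D0 and 584 at D7. Endothelial markers summed to 0.995 and 2.32 FPKM. Skeletal muscle markers summed to 51.2 and 4.81 FPKM, with Acta1 at 45.4 and 1.73 and with Myod1 and Ckm listed at 0 in both libraries. The part of other cells in the synthetase values was not tested. In bulk RNA, fewer cells of a type and less RNA per cell cannot be told apart.

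The 2 groups of synthetases moved apart between the libraries. At D7, 18 of the 20 cytosolic forms were lower than at D0, and 15 of 16 mitochondrial forms were higher. Over all 14986 genes above 0 in both libraries, 49.4% were lower and 50.6% were higher. Every member had an FPKM of at least 1 in both libraries, and over the 10773 genes at this level 52.6% were lower and 47.4% were higher. The median ratio of D7 to D0 was 0.632 for the cytosolic forms, a log2 ratio of -0.66, and 1.52 for the mitochondrial forms, a log2 ratio of 0.61. The median log2 ratio of all genes was 0.02. With 1 library per stage there is no replicate check and no p-value. The 95% intervals given with ratios are exact Clopper-Pearson intervals on recovered fragments, which cover counting error only. They compare these 2 libraries, not the stages.

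**Figure D1:**
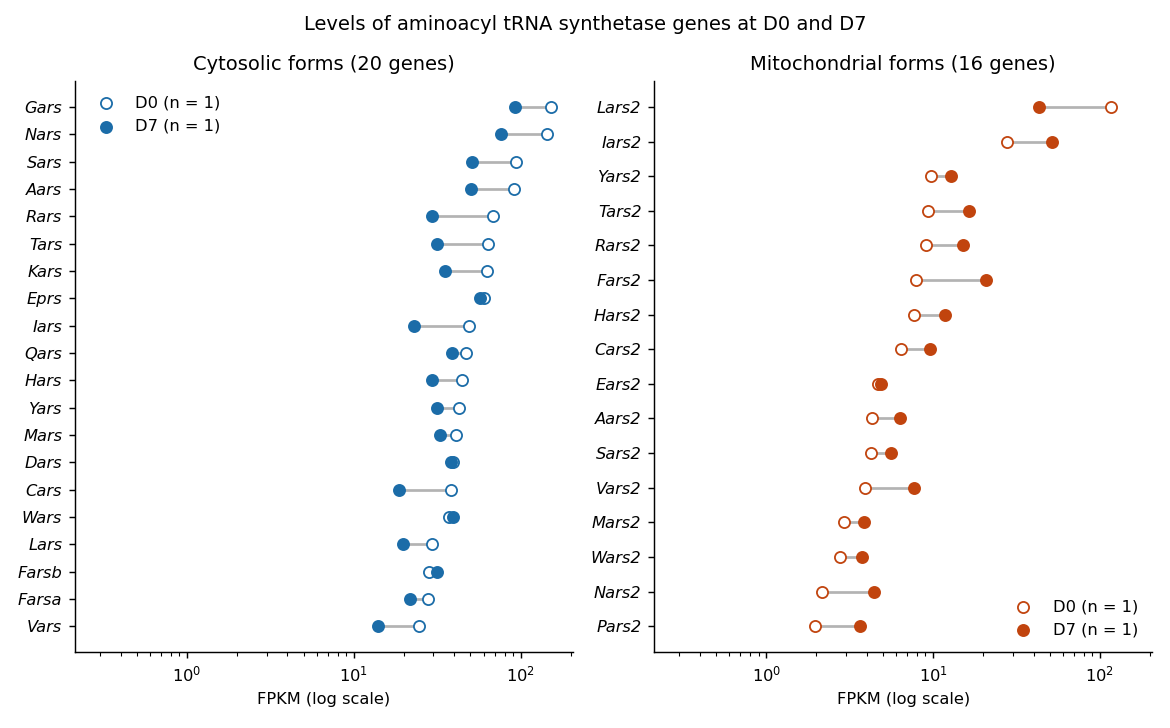
FPKM on a log scale (x axis) of the 20 cytosolic and 16 mitochondrial synthetase genes (y axis), with open circles for the D0 library and filled circles for the D7 library. Most filled circles lie to the left of the open ones among cytosolic forms and to the right among mitochondrial forms, and Lars2 stands out from the other mitochondrial forms in level and in direction.

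At the threshold of 2.0-fold, 4 cytosolic forms were lower at D7 and 0 were higher. Among all genes above 0 in both libraries, 13.2% were lower by at least 2.0-fold, and 9.86% of those with FPKM of at least 1 in both, so 4 of 20 is above both shares by only a few genes. At 1.5-fold, 11 of 20 cytosolic forms were lower, against 23.6% of all genes and 21.0% at FPKM of at least 1. The interval of the ratio lay below 1 in 17 of the 20, against 36.1% of all genes with a transcript length and 42.4% at FPKM of at least 1. Intervals are narrower for genes with more fragments, and the cytosolic forms had 966 to 10855 per library. These shares are not matched for depth.

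The gene with the lowest ratio among cytosolic forms was Rars, the arginyl tRNA synthetase (ENSMUSG00000018848.4, minus strand, chr11:35808381-35834506 of GRCm38). Rars had 68.2 FPKM at D0 and 29.5 at D7, which is a ratio of 0.432 (95% interval 0.401 to 0.463). Iars, which charges tRNA with isoleucine (plus strand, chr13:49682100-49734267), went from 48.7 to 23.1 FPKM, a ratio of 0.473 (0.448 to 0.500). A stretch of 1656 bases of the Iars transcript is 96.0% identical to Gm4849, which has no row of its own in the table, so reads of that stretch are uncertain. Cars, the cysteinyl enzyme (minus strand, chr7:143557230-143600090), had 38.4 FPKM at D0 and 18.5 at D7, for a ratio of 0.483 (0.448 to 0.519). Tars, the threonyl enzyme (minus strand, chr15:11382301-11399665), had 63.5 and 31.7 FPKM and a ratio of 0.499 (0.474 to 0.524), just inside the threshold. A stretch of its transcript, of up to 154 bases, is about 94% identical to Atp6v0e, Bicd1, G3bp2, Gm10287 and Gtpbp4. Reads of that stretch are uncertain. Rars, Iars, Cars and Tars serve different amino acids. The arginyl, isoleucyl and cysteinyl enzymes are of class I, whereas the threonyl enzyme is of class II.

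Just outside the threshold was Nars, the asparaginyl enzyme, with 145 FPKM at D0 and 75.7 at D7, giving a ratio of 0.523. Sars, for serine, had 93.5 and 51.0 FPKM, and Aars, for alanine, had 90.7 and 50.6 FPKM. The annotated Aars transcript shares 1326 bases with Exosc6 on the same strand, which makes its level uncertain. Vars, for valine, had the lowest level of the cytosolic forms, with 24.7 FPKM at D0 and 14.0 at D7. The deposited gene descriptions call Vars mitochondrial and do not call Sars2 so, while their partners Vars2 and Sars carry the expected compartment. The grouping used the symbols.

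Gars and Kars make the glycyl and the lysyl enzyme of both compartments from a single gene each. They moved with the cytosolic forms. Gars (plus strand, chr6:55038007-55079500) had the highest level of all 36 genes in both libraries, with 151 FPKM at D0 and 92.2 at D7, which is a ratio of 0.611 (0.586 to 0.635). Kars (minus strand, chr8:111993443-112011323) had 62.9 FPKM at D0 and 35.2 at D7, for a ratio of 0.560 (0.523 to 0.599). Without these 2 genes, the median log2 ratio of the cytosolic forms was -0.59.

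Smaller differences were measured in the other cytosolic genes. Hars, for histidine, had 44.7 FPKM at D0 and 29.3 at D7. Lars, for leucine, had 29.5 and 19.8 FPKM, and Yars, for tyrosine, had 42.9 and 31.6 FPKM. Farsa, the catalytic subunit of the phenylalanyl enzyme, had 27.7 and 21.8 FPKM. Mars, for methionine, had 41.0 and 33.0 FPKM, and its deposited locus overlaps Ddit3 on the opposite strand. Qars, for glutamine, had 47.2 and 39.0 FPKM, a ratio of 0.827. These ratios lay between 0.654 and 0.827, all with intervals below 1.

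At the top of the cytosolic order were 4 genes with ratios near 1. Eprs, a fused enzyme for glutamate and proline (plus strand, chr1:185363044-185428360), had 60.3 FPKM at D0 and 57.4 at D7, giving a ratio of 0.952 (0.916 to 0.988). Dars, for aspartate, had 39.5 and 38.1 FPKM, and its ratio of 0.966 had an interval from 0.897 to 1.04 that includes 1. Wars, for tryptophan, had 37.0 and 39.1 FPKM, a ratio of 1.06 with an interval from 0.992 to 1.12. Farsb, the other subunit of the phenylalanyl enzyme (minus strand, chr1:78417975-78488897), had the highest ratio of the cytosolic forms, with 28.3 FPKM at D0 and 31.7 at D7, or 1.12 (1.03 to 1.22). The 2 subunits of this enzyme thus had similar levels at D0 and lay on opposite sides of 1, each with an interval that excludes 1. The Farsb transcript shares 250 bases with Sgpp2 on the opposite strand, and use of the strand in counting was not given. Scaling to the library median, after raising values under 0.01 to 0.01, brought Farsb to 0.879 and Wars to 0.828. That setting moved the median log2 ratio of all genes by -0.35, and under it all 20 cytosolic forms were lower.

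**Figure D2:**
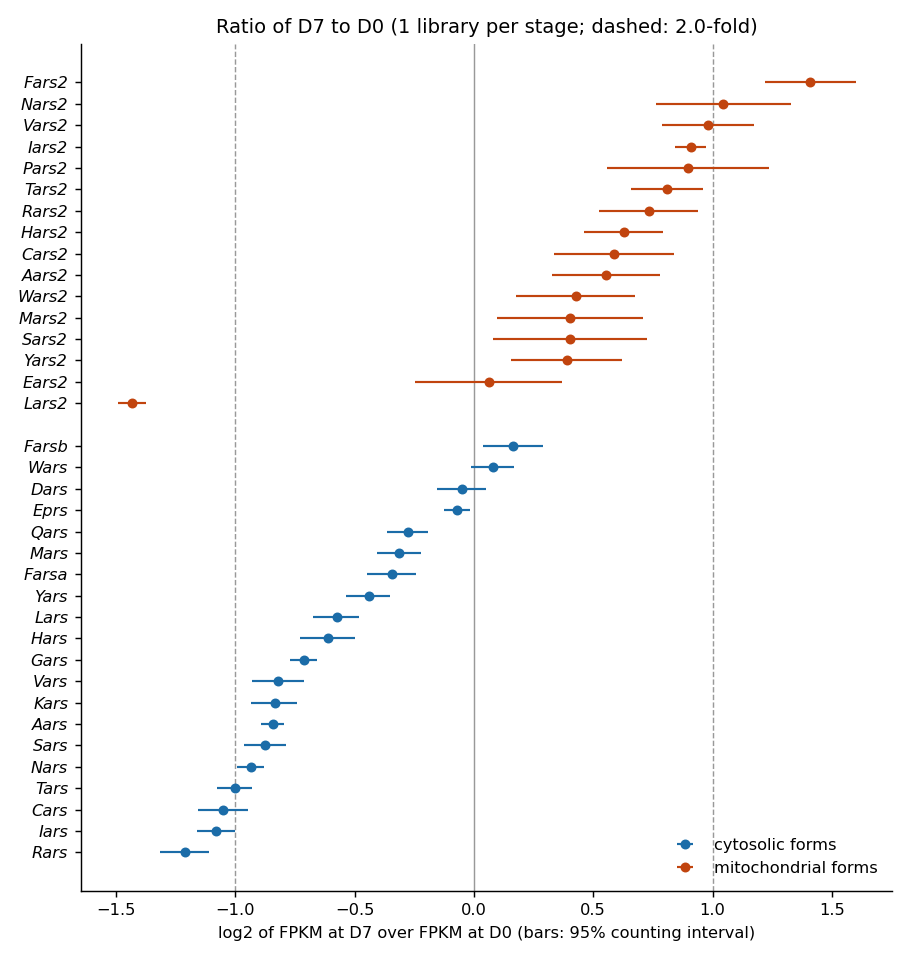
log2 ratio of FPKM at D7 to FPKM at D0 (x axis) for each synthetase gene (y axis), ordered by ratio within cytosolic and mitochondrial forms; points are ratios from 1 library per stage, bars are 95% counting intervals and dashed lines mark 2.0-fold. Rars, Iars, Cars, Tars and Lars2 lie at or left of the lower dashed line, Nars2 and Fars2 right of the upper one.

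The 8 cytosolic members of the multisynthetase complex (Dars, Eprs, Iars, Kars, Lars, Mars, Qars and Rars) were all lower at D7, with a median log2 ratio of -0.44 and 2 genes at 2.0-fold. Over all genes, 13.2% were lower by at least 2.0-fold, and 9.86% at FPKM of at least 1. The 12 cytosolic forms outside the complex had a median of -0.77, with 10 genes lower. The complex held both the lowest ratio of the cytosolic forms, that of Rars, and 2 of the 4 ratios nearest to 1, those of Eprs and Dars. Its 3 scaffold genes were also lower. Aimp1, which binds the arginyl enzyme, had 55.8 FPKM at D0 and 35.6 at D7, which is a ratio of 0.639. Aimp2, the core scaffold, had 35.1 and 16.8 FPKM, a ratio of 0.480. Eef1e1 had 38.7 and 18.9 FPKM, a ratio of 0.488. By catalytic class, the 10 cytosolic class I genes, with Eprs counted among them for its glutamyl domain, had a median log2 ratio of -0.51, and the 10 class II genes had -0.77.

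Sequences at the start of the members were read from RefSeq promoters on GRCm38.p6, which run from 250 bases before the start of a transcript to 50 bases after it. Promoters were found for 27 members, 13 cytosolic and 14 mitochondrial. The members without an entry there were Cars, Hars, Hars2, Lars, Nars, Pars2, Rars, Vars and Wars. The motif TGATGNAA, the composite element bound by ATF4 with C/EBP partners, was searched on both strands. It is in 3.97% of all 32851 promoters of the table, in 5 of the 13 cytosolic promoter sets and in 0 of the 14 mitochondrial ones. A window of 30 bases around 1 match in each of the 5 genes is shown because among the matched members this motif was found in cytosolic forms only, with the match in capitals and read 5′ to 3′ on the strand of the gene. The windows are at chr8:111033840-111033869 for Aars (plus), chr6:55037960-55037989 for Gars (plus), chr13:49682126-49682155 for Iars (plus), chr15:11399655-11399684 for Tars (minus) and chr4:129189895-129189924 for Yars (plus).
Aars: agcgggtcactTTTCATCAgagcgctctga
Gars: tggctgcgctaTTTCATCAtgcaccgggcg
Iars: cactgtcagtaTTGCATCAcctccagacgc
Tars: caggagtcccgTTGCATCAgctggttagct
Yars: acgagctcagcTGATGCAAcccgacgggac

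In 4 of these genes the match reads as the reverse complement on the strand of the gene, and in Yars it reads forward. None of these matches overlaps a match of the other motifs searched. A match is a description of letters, and binding was not measured in these cells. The 5 genes had ratios from 0.473 to 0.736. Farsb, with the highest ratio of the cytosolic forms, and Eprs, Dars, Qars, Mars and Farsa, with ratios of at least 0.788, had promoters without the motif, as did Sars and Kars, with ratios of 0.546 and 0.560.

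The E-box CACGTG, bound by MYC and related factors, is in 7.15% of all promoters, in 4 of 13 cytosolic ones (Aars, Farsb, Iars and Tars) and in 1 of 14 mitochondrial ones (Ears2). The motif of NRF1 (GCGCA, any base, then GCGC, on both strands), a factor known for nuclear genes of mitochondria, is in 4.6% of all promoters. It was found in 3 of 13 cytosolic promoters (Farsb, Kars and Tars) and in 2 of 14 mitochondrial ones, Iars2 and Mars2. The mitochondrial matches lie at chr1:185329374-185329403 (minus) and chr1:55237169-55237198 (plus), and are shown, in capitals within their windows, as the only matches of this motif among mitochondrial forms.
Iars2: ccgccccggaGCGCGTGCGCagttcctcgc
Mars2: ccgtccagctGCGCACGCGCcctttcccgt

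Mitochondrial forms had lower levels than cytosolic ones. Their median was 5.52 FPKM at D0 and 8.64 at D7, against 45.9 and 32.4 for the cytosolic forms. At 2.0-fold, 2 mitochondrial forms were higher at D7, against 18.5% of all genes and 11.8% at FPKM of at least 1, which is near the background, and 1 was lower. At 1.5-fold, 9 of 16 were higher, against 27.7% of all genes and 21.1% at FPKM of at least 1. The interval of the ratio lay above 1 in 14 of the 16, against 34.6% and 36.5%, shares that are again not matched for depth. Apart from Fars2 and Lars2, the ratios lay between 1.04 and 2.06.

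The gene with the highest ratio of all 36 was Fars2, the mitochondrial phenylalanyl enzyme (ENSMUSG00000021420.13, plus strand, chr13:36117412-36726280). Fars2 had 7.85 FPKM at D0 and 20.8 at D7, for a ratio of 2.65 (2.33 to 3.03), on 328 and 740 fragments. Its first 115 bases are shared with Lyrm4 on the opposite strand, and use of the strand in counting was not given. Nars2, the asparaginyl form (ENSMUSG00000018995.12, plus strand, chr7:96951505-97064758), had 2.15 and 4.43 FPKM, a ratio of 2.06 (1.70 to 2.51) on 166 and 291 fragments. Its transcript shares 284 bases with C230038L03Rik on the opposite strand. Nars2 lay just inside the threshold, and with a pseudocount of 1 or with upper quartile scaling only Fars2 still passed. Just outside was Vars2, for valine, with 3.91 FPKM at D0 and 7.70 at D7, giving a ratio of 1.97.

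Iars2, the isoleucyl form (minus strand, chr1:185284726-185329396), had 27.7 FPKM at D0 and 51.9 at D7, which is a ratio of 1.88. It was the second most abundant mitochondrial form at D0 and the most abundant at D7. Its transcript shares 2034 bases with Rab3gap2 on the opposite strand. Pars2, for proline, had the lowest level of the 36 genes in both libraries, with 1.96 and 3.64 FPKM, and 120 fragments behind the D0 value. Tars2, for threonine, had 9.35 and 16.4 FPKM. Rars2, for arginine, had 9.02 and 15.0 FPKM, Hars2, for histidine, 7.67 and 11.9 FPKM, and Cars2, for cysteine, 6.38 and 9.58 FPKM. These 5 genes lay between 1.502 and 1.86 in ratio. The Cars2 transcript shares 217 bases with Naxd on the opposite strand.

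Aars2, the alanyl form, had 4.32 FPKM at D0 and 6.34 at D7, for a ratio of 1.47. Ratios of 1.31 to 1.34 were measured in Wars2, for tryptophan (2.79 and 3.75 FPKM), Mars2, for methionine (2.91 and 3.85 FPKM), Sars2, for serine (4.22 and 5.58 FPKM) and Yars2, for tyrosine (9.75 and 12.8 FPKM). Ears2, for glutamate, had 4.67 FPKM at D0 and 4.87 at D7. With a ratio of 1.04, it had an interval from 0.842 to 1.29, so no difference was detectable at this depth, and scaling to the library median gave 0.817. By class, the 9 mitochondrial class I genes had a median log2 ratio of 0.43 and the 7 class II genes 0.81. The median shift was thus larger in class II in both compartments, downward in the cytosol and upward in mitochondria. Counts at 2.0-fold did not follow this in the cytosol, where 3 class I genes and 1 class II gene were lower. In mitochondria 2 class II genes and 0 class I genes were higher by 2.0-fold, and the class I median includes Lars2. The classes held 7 to 10 genes each, their ranges overlapped, and a difference between classes was not tested.

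Lars2, the mitochondrial leucyl enzyme (ENSMUSG00000035202.8, plus strand, chr9:123366927-123462666), was the exception. Lars2 had 117 FPKM at D0 and 43.4 at D7, which is a ratio of 0.371 (0.355 to 0.386) on 9336 and 2943 fragments, the lowest ratio of all 36 genes. Its D0 level was the third highest of all members and more than that of the other 15 mitochondrial forms summed, 105 FPKM. Its transcript of 3894 bases shares 97 bases at 94.8% identity with AA474408 and 72 bases at 98.6% with Gm15564, both within bases 3233 to 3349 and neither with a row in the table. Reads of that stretch are therefore uncertain, and the part of this stretch in the level of Lars2 was not tested.

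With Lars2 included, the summed FPKM of the mitochondrial forms was nearly equal in both libraries, 221.7 at D0 and 221.9 at D7. Without Lars2 the sum was 105 at D0 and 178 at D7, for a ratio of 1.71. The cytosolic forms summed to 1184 at D0 and 762 at D7, giving a ratio of 0.644. The cytosolic sum was 5.34 times the mitochondrial one at D0 and 3.43 times at D7, or 11.3 and 4.27 times without Lars2.

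Pairs for the same amino acid were then compared. The genes form 17 pairs over 16 amino acids, in which Eprs and Fars2 each enter 2 pairs, so the pairs are not independent. The ratio of D7 to D0 was higher in the mitochondrial form than in the cytosolic form in 16 of 17 pairs, and the intervals did not overlap in 15 of these 16. The exception to the first was leucine, where Lars was at 0.671 and Lars2 at 0.371. The exception to the second was glutamate, with Eprs at 0.952 and Ears2 at 1.04. The median of the mitochondrial ratio over the cytosolic ratio was 2.42.

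**Figure D3:**
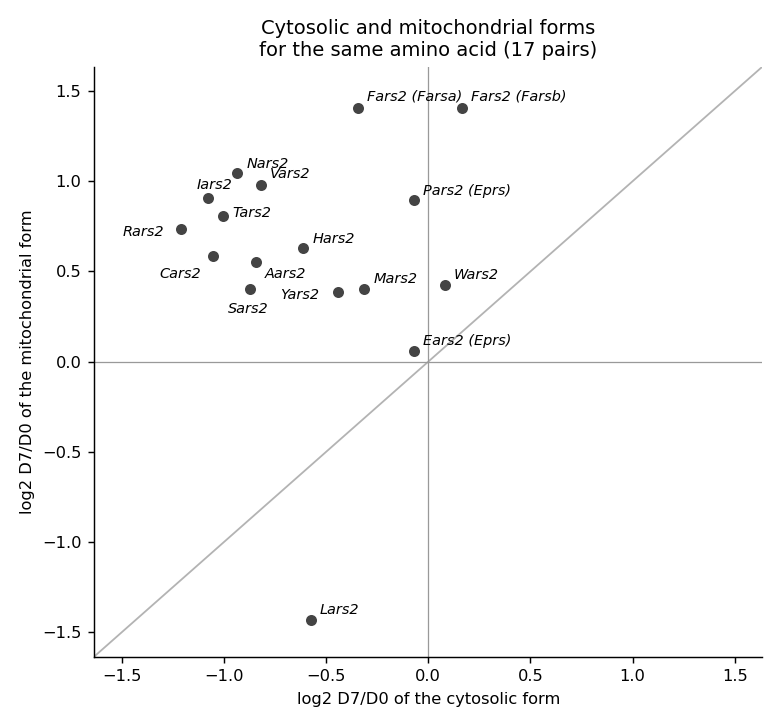
log2 ratio of D7 to D0 of the mitochondrial form (y axis) against that of the cytosolic form for the same amino acid (x axis), 1 point per pair; the diagonal marks equal ratios. Of 17 points, 16 lie above the diagonal and 14 in the upper left part, where the cytosolic form was lower and the mitochondrial form higher at D7; the leucine pair lies below.

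In 14 pairs the mitochondrial form was higher and the cytosolic form lower at D7. The isoleucine pair differed most, with Iars at 0.473 and Iars2 at 1.88 (1.79 to 1.96), so that the mitochondrial ratio was 3.96 times the cytosolic one. Both of these genes share long stretches with other genes, as given above, so this separation is uncertain. Asparagine followed at 3.94 times, with Nars at 0.523 (0.502 to 0.544) and Nars2 at 2.06. Arginine was at 3.85 times, with Rars2 at 1.66 (1.44 to 1.92). Threonine was at 3.51 times, with Tars2 at 1.75 (1.58 to 1.94). These pairs hold 3 of the 4 cytosolic genes past 2.0-fold and 1 of the 2 mitochondrial ones.

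The valine pair was at 3.48 times, with Vars at 0.567 (0.525 to 0.611) and Vars2 at 1.97 (1.73 to 2.25). For phenylalanine, Fars2 was 3.37 times Farsa, which was at 0.788 (0.733 to 0.846), and 2.37 times Farsb. Cysteine was at 3.11 times, with Cars2 at 1.502 (1.26 to 1.79). Together with the pairs above, these are the amino acids in which the mitochondrial over the cytosolic ratio passed 3 in at least 1 pair. For alanine it was 2.64, with Aars at 0.557 (0.539 to 0.576) and Aars2 at 1.47 (1.26 to 1.72). For serine it was 2.42, with Sars at 0.546 (0.513 to 0.578) and Sars2 at 1.32 (1.06 to 1.65).

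For histidine the mitochondrial over the cytosolic ratio was 2.36, with Hars at 0.654 (0.603 to 0.707) and Hars2 at 1.55 (1.38 to 1.73). Hars and Hars2 are neighbours on chromosome 18, on opposite strands with their starts 74 bp apart in the table. Their annotated transcripts overlap by 195 bases, yet their ratios lay on opposite sides of 1. Such closeness was rare among the members. Iars2 and Eprs are 33693 bp apart on chromosome 1 and also differed in direction, while the next closest pair was Vars and Vars2, 639305 bp apart on chromosome 17.

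Smaller separations were found in the remaining pairs. For proline, Pars2 at 1.86 (1.47 to 2.36) was 1.95 times Eprs. For tyrosine the factor was 1.78, with Yars at 0.736 (0.690 to 0.784) and Yars2 at 1.31 (1.11 to 1.54). For methionine it was 1.64, with Mars at 0.805 (0.756 to 0.857) and Mars2 at 1.32 (1.07 to 1.64). For tryptophan it was 1.27, and both Wars and Wars2 were higher at D7. Wars2 was at 1.34 (1.13 to 1.60), above the upper end of the interval of Wars.

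The cytosolic form, set against its mitochondrial partner, was relatively less abundant at D7 in 16 of the 17 pairs. By construction this is the same count as that of the ratios above, here shown as levels. Cytosolic over mitochondrial FPKM had a median of 6.79 over the 17 pairs at D0 and 2.47 at D7. In the asparagine pair it was the widest, at 67.3 at D0 and 17.1 at D7. In the isoleucine pair the order turned, from 1.76 at D0 to 0.445 at D7, so that Iars2 was more abundant than Iars in the D7 library. Iars shares a stretch with Gm4849 and Iars2 with Rab3gap2, and use of the strand in counting was not given. This order is therefore uncertain. Fars2 came close to Farsa, whose level was 3.52 times that of Fars2 at D0 and 1.05 times at D7. Leucine was the pair in which the mitochondrial form was the more abundant one in both libraries, with a cytosolic over mitochondrial value of 0.252 at D0 and 0.457 at D7.

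**Figure D4:**
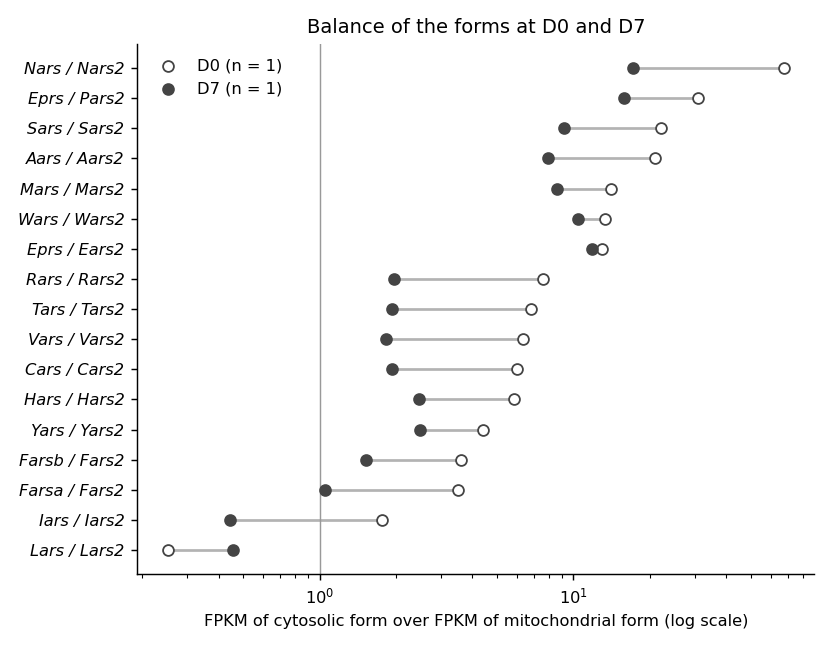
FPKM of the cytosolic form divided by FPKM of the mitochondrial form on a log scale (x axis) for each of the 17 pairs (y axis), open circles for D0 and filled circles for D7, 1 library each; the vertical line marks equal levels. The filled circle lies left of the open one in 16 pairs, and in the isoleucine pair it crosses the line.

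Other genes of translation were set beside the synthetases. For counts of these and later lists at 2.0-fold, the shares over all genes above 0 in both libraries were 13.2% lower and 18.5% higher. At FPKM of at least 1 in both they were 9.86% and 11.8%. All 6 cytosolic elongation factor genes were lower at D7, with a median log2 ratio of -0.83 and 2 at 2.0-fold. The lowest was Eef1g, a subunit of the exchange factor that reloads EF1A, with 882 FPKM at D0 and 323 at D7, which is a ratio of 0.366, and the highest was Eef2, the translocation factor, at 0.787. Of 83 cytosolic ribosomal protein genes above 0 in both libraries, 81 were lower, with a median of -0.90 and 26 lower by at least 2.0-fold. Their ratios at FPKM of at least 1 ran from 0.106 for Rps27 to 1.28 for Rpl22l1. The median of the cytosolic synthetases, -0.66, was nearer to 1 in ratio than either.

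Of 12 mitochondrial translation factor genes, 11 were higher at D7, with a median log2 ratio of 0.58 and 5 at 2.0-fold. Gfm1, the mitochondrial elongation factor G, had 18.4 FPKM at D0 and 65.4 at D7, for a ratio of 3.54, and Mtfmt, which formylates the initiator tRNA, was the lowest at 0.903. Of 15 genes for processing and modification of mitochondrial tRNA, 13 were higher, with a median of 0.56. Trmu, which adds sulfur to the wobble base, was the highest at 2.85, and Yrdc, an enzyme of the threonylcarbamoyl modification, the lowest at 0.679. No mitochondrial glutaminyl tRNA synthetase is among the members. The 3 measured genes of the amidotransferase that makes mitochondrial glutaminyl tRNA were all higher, from 1.49 for Gatc to 3.86 for Pet112. Of 76 mitochondrial ribosomal protein genes, 70 were higher, with a median of 0.61 and 12 higher by at least 2.0-fold, and ratios from 0.450 for Mrpl52 to 3.51 for Mrpl12. This count at 2.0-fold is near the share over all genes, 18.5%, or 11.8% at FPKM of at least 1. The median of the mitochondrial synthetases was also 0.61.

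**Figure D5:**
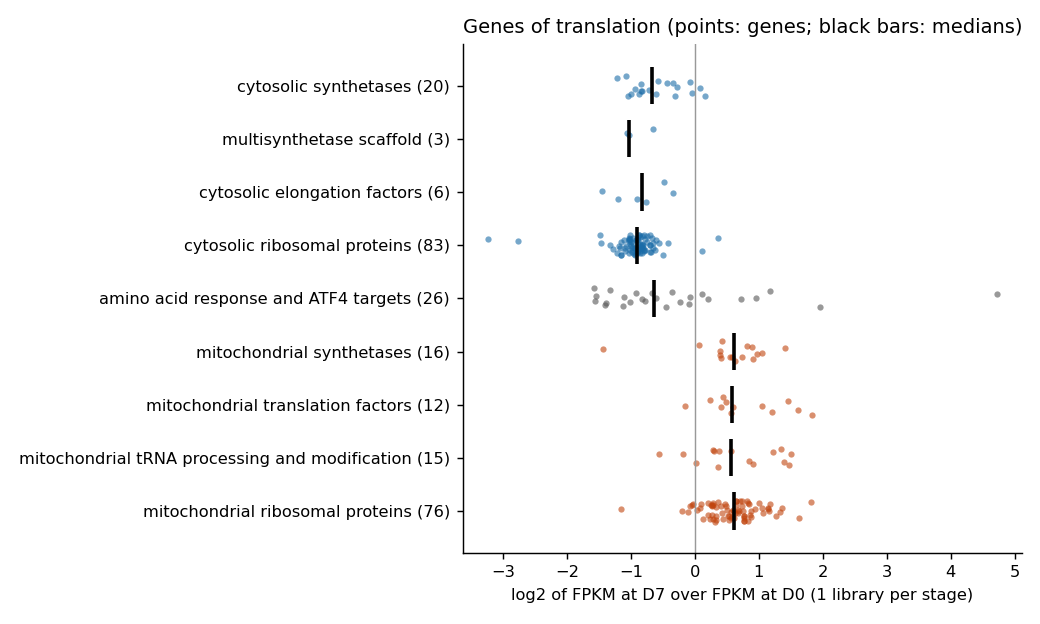
log2 ratio of FPKM at D7 to FPKM at D0 (x axis, 1 library per stage) of the genes in 9 lists (y axis, with the number of genes above 0 in both libraries); each point is a gene and black bars are list medians. Medians of cytosolic lists lie between -1.03 and -0.66, and those of the 4 mitochondrial lists plotted between 0.56 and 0.61.

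Of 5 genes for editing of tRNA or related to synthetases, 4 were higher and 1 lower, with a median log2 ratio of 0.44. Tarsl2, a threonyl synthetase like enzyme of the cytosol, had 1.61 FPKM at D0 and 4.43 at D7, giving a ratio of 2.76 (2.18 to 3.50). Its parent form Tars was at 0.499, and Tars stayed the more abundant of the 2 in both libraries. The lowest of this list was Dtd1, a deacylase for D-amino acids on tRNA, at 0.891.

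The amino acid response was followed through 26 of its genes and ATF4 targets, a list that holds no synthetase. Of these, 19 were lower at D7, with a median log2 ratio of -0.63, 9 lower by at least 2.0-fold and 3 higher. Atf4, the transcription factor of the response, had 204 FPKM at D0 and 115 at D7, which is a ratio of 0.564. Asns, the asparagine synthetase and a known target, had 89.1 and 52.1 FPKM, a ratio of 0.585. Both values lay within the range of the cytosolic synthetases, 0.432 to 1.12. That range includes 1 and also the ratio of Ddit3 given next, so it does not set Atf4 and Asns apart. A link to the synthetases was not tested. Other targets, Ddit3 and Trib3, had ratios nearer to 1. Ddit3, the stress factor CHOP, had 93.2 and 88.8 FPKM, a ratio of 0.953 with an interval from 0.877 to 1.03, and its gene overlaps the deposited locus of Mars. Trib3, a pseudokinase induced by ATF4, had 23.0 and 26.5 FPKM, a ratio of 1.15. The list spanned ratios from 0.335 for Aldh1l2, a mitochondrial folate enzyme, to 26.4 for Slc1a5, a glutamine transporter with 21.0 FPKM at D0 and 556 at D7.

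A further list of 8 genes of this pathway held Eif2ak1, Eif2ak2, Eif2ak3, Eif2ak4, Eif2s1, Gcn1l1, Ppp1r15a and Ppp1r15b. These had a median log2 ratio of -0.36, with 0 past 2.0-fold. The lowest was Eif2ak4, the kinase GCN2 that senses uncharged tRNA, at 0.689, and the highest was Eif2ak1, the heme-regulated kinase, at 1.19. Of 15 genes of mTORC1 and amino acid sensing, 12 were higher, with a median of 0.25 that turned to -0.10 under the scaling to the library median. The gene past 2.0-fold was Sesn1, a leucine sensor relative, at 3.37. The lowest of these was Rraga, a small GTPase of the lysosome surface, at 0.889. Among 6 measured genes of the Myc family, 3 were higher and 3 lower, with a median of 0.06 that turned to -0.75 under the same scaling, to -0.40 with a pseudocount of 0.1 and to -0.08 with a pseudocount of 1. In these settings Mycn, listed at 0 at D7, also enters. Myc itself, a known activator of genes for translation, had 10.3 FPKM at D0 and 6.94 at D7, for a ratio of 0.671, and Mxd1, which competes for the same partner, was at 2.94.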

How the data were processed

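RNA-Seq of mRNA isolated from total RNA was analysed for D0 and D7, with 1 library per stage. The authors filtered reads and deposited their expression as FPKM, a single value for each gene in each library. SOAP2 is named in the paper for alignment to mm10, and the submitters' processing notes list Bowtie2 and mm10. The libraries were made with degradation of the second strand, and whether strand was used in counting is not given in the sources used here. FPKM values were used as deposited, without a pseudocount or rescaling, so that a ratio also follows the overall composition of each library.

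Of 27324 rows, 3963 held no value. Ratios were taken over the 14986 genes above 0 in both libraries, and genes past 2.0-fold, as in the paper's methods, were counted. Fragments behind a value were recovered from 603 single-exon genes of 600 bp or longer, with 179 bp (D0) and 182 bp (D7) taken from each length. The denominators were 21471020 fragments at D0 and 18265722 at D7, and 100% of 81 and 88 low values were whole within 0.1. For members, the length of the named transcript was used (35 genes) or of the deposited locus (Mars2), so fragments, from 120 to 10855 for the members, are approximate. Intervals are Clopper-Pearson at 95%. Shared stretches of annotated transcripts were searched with BLAST 2.17.0, and GENCODE coordinates are on GRCm38. In 7 members the deposited locus overlaps another coding gene, in whole or in part (Exosc6 with Aars, Lyrm4 with Fars2, Hars2 with Hars, Rab3gap2 with Iars2, Ddit3 with Mars, Wdr25 with Wars, C77080 with Yars).

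The members and lists were chosen with earlier results of these data known. All members are named. Given in full are members past 2.0-fold, the extremes of each form, Gars, Kars, Eprs and pairs on opposite sides of 1. From other lists, counts and medians are given, with the highest and lowest ratio where both FPKM values reached 1, and Atf4, Ddit3, Asns, Trib3, Myc, Aimp1, Aimp2 and Eef1e1. Marker genes are named beside this rule, and those shown were chosen with their values known. Scripts were tested on simulated data. Alternatives were TPM, upper quartile scaling, centring on the median ratio, pseudocounts of 0.1 and 1, a floor of 0.01 with the library median, a filter at FPKM of 1, summed rows and a threshold of 1.5-fold. Leaving out Lars2 was chosen after seeing the data. Some items are not reported here. No test across replicates was possible. Computing used scipy 1.17.1, pandas 2.3.3 and numpy 2.4.6 in Python 3.11.15, with plots by matplotlib 3.10.9.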

Additional observations from a re-analysis of the deposited data

How the results depend on the processing

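The directions of both group medians held under every alternative tried, and their difference, 1.27 on the log2 scale, ranged from 1.19 to 1.29 with pseudocounts and with members left out. Scaling a whole library changes neither this difference nor the order within a pair, by construction. In 16 of 17 pairs the mitochondrial ratio was above the cytosolic one also with each pseudocount. Counts at the threshold moved more. The mitochondrial forms higher by at least 2.0-fold numbered 2, and 1 with a pseudocount of 1, with upper quartile scaling or with the floor of 0.01 and library median, and 9 at 1.5-fold. The cytosolic forms lower by at least 2.0-fold numbered 4, and 3 with a pseudocount of 1, 10 with the floor and library median and 11 at 1.5-fold. The floor with the library median moved the median log2 ratio of all genes by -0.35, all other scalings by less than 0.1, and gave medians of -1.01 for cytosolic and 0.26 for mitochondrial forms, with 20 of 20 cytosolic forms lower and 14 of 16 mitochondrial forms higher. All 36 member ratios left their interval under that setting, while the other 252 values of single members under alternatives stayed within it, and Farsb, Wars and Ears2 changed side of 1. Of 150 list medians under alternatives, 28 moved beyond their interval and the rest did not. The filter at FPKM of 1 left no value for brown adipocyte and endothelial markers. Without Lars2, 0 mitochondrial forms were lower by 2.0-fold. Depth limits Pars2, Sars2, Nars2, Mars2 and Ears2, with 120 to 187 fragments at D0. No paired analysis was possible because there was 1 library per stage and the labels carry no shared replicate numbers. For the same reason no replicate could be left out.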
